A study of Mus musculus with 2 samples.

Results

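Cadherins and the non-clustered protocadherins are cell adhesion genes, and the peaks described here are those whose assigned gene symbol was Cdh or Pcdh followed only by digits. The authors' annotation gave 597 such peaks, of 99782 annotated peaks in all, which is 0.598% of the peaks. They belonged to 30 of the 34 genes with such a symbol in GENCODE M21. In the whole annotation 18617 genes of any type had at least 1 peak, a count without a total to set beside the 30 of 34. By peaks inside the gene body, 6 of the 34 had none, against 8735 of all 21938 protein-coding genes. The naming rule leaves out Pcdh11x and the clustered Pcdha, Pcdhb and Pcdhg genes.

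The data were CUT&Tag libraries made from the hippocampus of untreated CamK-PARIS mice on the C57BL/6J strain. CUT&Tag uses an antibody to bring the transposase Tn5 to chromatin, where it cuts and tags the DNA beside the antibody's target. The series has 1 library made with an anti-FLAG antibody, for PARIS, a zinc-finger repressor encoded by Zfp746, and 1 made with an anti-IgG antibody as the negative control. Both groups share the genotype, and the labels do not give the animals' age or number, nor which cells carry the FLAG-tagged protein.

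With 1 anti-FLAG library there was no replicate error and no test between conditions, so every interval below covers counting over peaks only. The IgG library entered through the authors' peak calling and its own values were not analysed here. Sequencing depth is unknown. A taller peak may come from more cells carrying the protein at a site or from more of it per cell, and these cannot be told apart. A peak list holds no expression values, so the labelled tissue was not checked against marker genes.

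Cadherins are transmembrane proteins whose extracellular repeats bind calcium and hold neighbouring cells together. The cytoplasmic tails of the classical type I and type II cadherins bind catenins, which link the contact to actin. Non-clustered protocadherins are divided into delta-1 and delta-2 groups by their extracellular repeats and cytoplasmic motifs, and like many cadherins they act at synapses and in the sorting of axons in the hippocampus.

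Each peak has a maximum signal, which is the highest coverage within it, and a total signal, which is the coverage summed over its bases, both in the authors' units. The summit is the stretch at which the coverage is highest. Summits of 3 of the 4 tallest peaks are shown first, as the highest signals over these genes, read from the RefSeq copy of GRCm38.p6 (mm10). Those of Cdh4 at chr2:179562027-179562226, Cdh22 at chr2:165238221-165238420 and Cdh12 at chr15:21109651-21109850 are on the plus strand and are 200 bp around the summit. Their peaks had maximum signals of 391, 390 and 345. None of the 3 holds the motif described below, so none carries capitals.
Cdh4 intron 2: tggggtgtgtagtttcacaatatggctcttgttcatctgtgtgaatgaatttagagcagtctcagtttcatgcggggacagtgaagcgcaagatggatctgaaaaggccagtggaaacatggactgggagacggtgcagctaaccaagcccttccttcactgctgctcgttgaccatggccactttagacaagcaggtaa
Cdh22 upstream: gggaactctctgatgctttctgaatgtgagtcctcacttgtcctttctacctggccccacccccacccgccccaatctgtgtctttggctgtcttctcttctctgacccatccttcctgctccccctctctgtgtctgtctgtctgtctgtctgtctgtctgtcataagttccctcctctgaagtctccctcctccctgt
Cdh12 internal start: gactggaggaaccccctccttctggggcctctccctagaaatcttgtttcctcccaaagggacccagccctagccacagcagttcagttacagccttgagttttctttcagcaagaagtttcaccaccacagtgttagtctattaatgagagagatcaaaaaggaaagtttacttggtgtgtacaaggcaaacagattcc
GC content was 49.0% in the Cdh4 window, 54.5% in the Cdh22 window and 47.0% in the Cdh12 window. The Cdh22 window has a run of the repeated letters ctgt, and 63.5% of it was marked as repeat in the reference, against 0% of the Cdh4 and Cdh12 windows.

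Summits beside annotated transcription start sites (TSS) are shown for 3 of the taller start-site peaks, those whose windows could be taken clear of exons. They are Pcdh9 at chr14:93891220-93891419 on the minus strand, Cdh7 at chr1:109982143-109982342 on the plus strand and Cdh18 at chr15:23036226-23036425 on the plus strand. The peaks had maximum signals of 248, 235 and 223.
Pcdh9 start: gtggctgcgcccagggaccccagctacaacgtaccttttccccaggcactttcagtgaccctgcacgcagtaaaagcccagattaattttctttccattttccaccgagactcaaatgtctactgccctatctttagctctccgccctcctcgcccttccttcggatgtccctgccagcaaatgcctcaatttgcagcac
Cdh7 start: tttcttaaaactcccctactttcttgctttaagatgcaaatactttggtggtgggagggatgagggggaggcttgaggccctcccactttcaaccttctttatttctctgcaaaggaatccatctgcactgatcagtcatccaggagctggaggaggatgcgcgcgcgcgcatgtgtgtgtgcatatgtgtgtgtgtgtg
Cdh18 internal start: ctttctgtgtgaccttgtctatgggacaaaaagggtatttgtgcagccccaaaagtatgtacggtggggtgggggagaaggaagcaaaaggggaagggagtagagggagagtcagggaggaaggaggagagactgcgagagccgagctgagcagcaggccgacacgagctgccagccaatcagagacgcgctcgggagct
These 3 windows held 7, 5 and 8 CpG dinucleotides and none held the motif. Cdh7's window ends in a run of tg repeats.

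The motif searched was the insulin response sequence, reported as a binding element of PARIS, spelled TATTTTT or TATTTTG and looked for on both strands of 200 bp around each summit. Of the 6 tallest peaks with a motif at the summit, 5 are shown, with 61 bp around the match and the match in capitals. They are Cdh20 at chr1:104227039-104227099 (plus), Cdh26 at chr2:178711373-178711433 (minus) and chr2:178691917-178691977 (minus), Cdh10 at chr15:18684867-18684927 (plus) and Cdh6 at chr15:14740239-14740299 (plus).
Cdh20, maximum signal 299: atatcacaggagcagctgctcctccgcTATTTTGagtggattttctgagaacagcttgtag
Cdh26, maximum signal 237: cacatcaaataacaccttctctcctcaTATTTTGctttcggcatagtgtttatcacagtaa
Cdh10, maximum signal 187: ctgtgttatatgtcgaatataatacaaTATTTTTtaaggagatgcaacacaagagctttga
Cdh26, maximum signal 179: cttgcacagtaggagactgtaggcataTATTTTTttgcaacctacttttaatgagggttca
Cdh6, maximum signal 151: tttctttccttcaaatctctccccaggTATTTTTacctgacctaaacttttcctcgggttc
All 5 lay in distal intergenic sequence, between 134003 and 1566471 bp from the TSS that the authors assigned. The Cdh6 window was wholly marked as repeat in the reference. A match is a description of the letters and does not show that PARIS binds there.

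The motif was present at 69 of the 597 summits, or 11.6% (95% Wilson interval 9.24 to 14.4%), against 9.95% of the summits of all peaks. In the flanks 1000 bp to either side it was present in 17.8% of the windows, against 13.6% for all peaks. The share at these summits was therefore 6.20 percentage points below that in their own flanks (summit minus flank, interval -9.45 to -2.95 points). Among the 43 peaks in the highest 10% of the list by total signal the difference was -4.65 points, with an interval of -16.8 to 7.47 that includes 0. The flanks also had a lower GC content, with a mean of 43.0% against 46.2% at the summit, and its part in the motif counts was not tested. The 69 motif summits fell in 21 genes. Cdh20 held 9 of them among its 34 peaks, Pcdh9 held 6 of 42, and both Cdh9, with 29 peaks, and Pcdh15, with 41, held 5. The maximum signal of the motif peaks had a median of 96 and ran from 15 to 299. No motif lay at the 37 summits within 1 kb of a TSS, which allows a share of up to 9.41% by the Wilson interval, and over all peaks near a TSS the share was 5.40%.

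In RefSeq promoters, taken as 250 bp before to 50 bp after a start, the motif was present in 2 of 25 promoters of 22 of these genes, against 3719 of 32851 promoters in all (11.3%). The 2 belonged to Cdh10 and Cdh6. The 25 leave out the other member genes, among them Cdh2, Cdh4, Cdh13 and Pcdh1, and count Cdh7 and Pcdh9 more than once. The Cdh10 promoter is shown because a peak with a maximum signal of 164 lies 206 bp from the match. It is at chr15:18820138-18820198 on the plus strand, and the match, in capitals, reads TATTTTT on the minus strand, 164 bp before the RefSeq start.
Cdh10 promoter: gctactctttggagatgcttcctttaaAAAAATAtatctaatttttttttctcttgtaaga
In the Cdh6 promoter the nearest peak was 11595 bp from the start.

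The number of peaks differed widely among the genes. The median was 14.5 peaks per gene with a peak, against 3 for all genes with a peak, and 5 genes held 229 of the 597 peaks (38.4%). The 34 genes are longer, with a median length of 115 kb against 17.4 kb for all protein-coding genes. Per 100 kb of gene body they held fewer peaks, 3.58 against 5.45. Cdh13, which encodes T-cadherin, anchored to the membrane by a lipid and without a cytoplasmic tail, had the most, with 67. It was followed by Cdh4 (R-cadherin) with 45, Pcdh9 with 42, Pcdh15 with 41, Cdh20 with 34 and Cdh9 with 29. These are mostly long genes, Pcdh15 spanning 1550 kb and Cdh13 1041 kb, but Cdh9 spans 128 kb.

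The heights of the peaks were close to those of the whole list. The median maximum signal was 100 (95% interval 96 to 105) against 101 for all peaks, the middle of the distribution ran from 64 to 131 (lower and upper quartile) and the extremes were 7 and 428. Only 38 of the 597 peaks (6.37%, 4.67 to 8.62%) were in the highest 10% of the list by maximum signal, a level that 9.94% of all annotated peaks reached. Among peaks assigned to protein-coding genes of at least 100 kb the share was 8.41%. Median width was 346 bp against 363 bp over all peaks.

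Peaks were of 2 shapes. In a constant-height peak the total signal is at least 99% of the maximum signal times the width, so the coverage is a flat block, and in the others, called varying, the height changes along the peak. Of the 597 peaks, 189 were varying (31.7%, 28.1 to 35.5%), against 36.7% of all peaks and 34.2% of peaks assigned to genes of at least 100 kb. The varying peaks had a median maximum signal of 129 and a median width of 618 bp. The 408 constant-height peaks had medians of 94 and 239.5 bp. Pcdh10 and Pcdh19 were the genes with peaks but no varying peak.

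**Figure D1:**
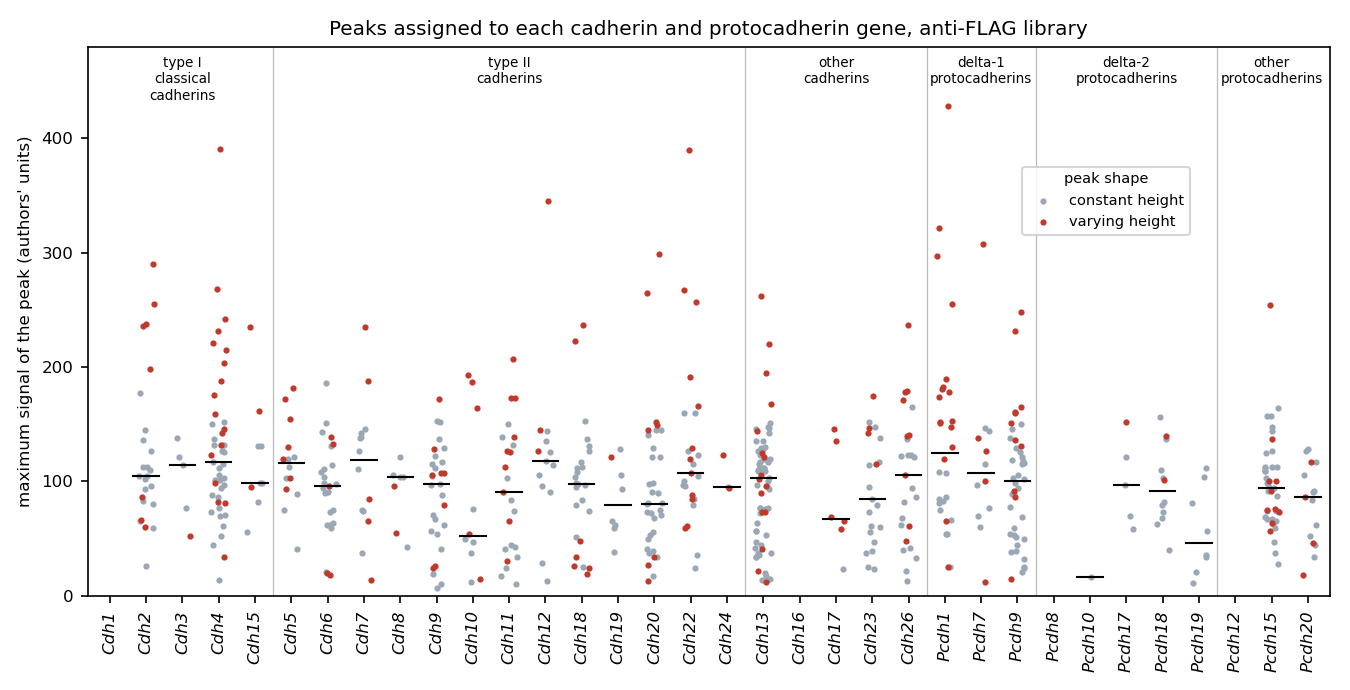
Maximum signal (vertical axis, authors' units) of each of the 597 peaks, by gene and role, in the anti-FLAG library. Grey points are constant-height peaks, red points are varying peaks and black lines are the medians per gene. The tallest peak is at Pcdh1 (428), and Cdh1, Cdh16, Pcdh8 and Pcdh12 have no point.

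Type I classical cadherins mediate strong adhesion between like cells. Their 5 genes held 84 peaks, 30 of them varying, with a median maximum signal of 112.5 (99 to 127), and 59 of the peaks lay inside their own gene. Cdh2, which encodes N-cadherin, the main classical cadherin of neurons, had 25 peaks with a median maximum signal of 105, from 26 to 290. Its tallest lay on the gene start, 1539 bp wide, with a total signal of 166960, and was the only Cdh2 peak within 1 kb of a TSS. A further varying peak of Cdh2 lay 251085 bp from the assigned TSS in intergenic sequence, with a maximum signal of 198 and a total signal of 128573.

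Cdh4 had 42 of its 45 peaks inside its 457 kb gene, and 18 of the 45 were varying. The tallest, at 391, lay in intron 2 and ranked 836 by maximum signal in the list. The Cdh4 peak with the highest total signal, 194229, lay in intron 6 and was 2129 bp wide. At its start Cdh4 had varying peaks with maximum signals of 159, 215 and 34, the last 98.9% filled and so just inside the varying class. Cdh3 (P-cadherin) had 5 peaks with a median maximum signal of 114. Beside its start lay a varying peak of 52 and a constant-height one of 138, the latter 135 bp upstream. Cdh15 (M-cadherin, known from muscle) had 9 peaks with maximum signals from 56 to 235, the nearest 5447 bp from a TSS. Cdh1, which encodes E-cadherin of epithelia, had none, and the nearest peak to its start was 11560 bp away.

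Type II cadherins are expressed in restricted sets of neurons and other cells. All 13 type II genes had an assigned peak, though Cdh19 had none inside its gene body. They held 230 peaks, 75 of them varying, with a median maximum signal of 98 (91 to 106). Only 77 of the 230 peaks (33.5%) lay inside their own gene, against 70.2% (59.8 to 79.0%) for type I genes. The type I share rested largely on Cdh4, which held 42 of the 59 inside peaks, and without it the share was 43.6% (29.3 to 59.0%), an interval that overlaps the 27.7 to 39.8% of type II.

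Cdh22, expressed in brain, had 25 peaks, 12 of them varying, from 24 to 390. Its tallest lay 3348 bp upstream of the TSS, with a total signal of 164472, and a lower varying peak of 129 covered the start itself, where GC content was 81.5% and the 200 bp window held 27 CpG. Cdh7 had 14 peaks, 13 of them outside the gene. A varying peak of 235 lay 161 bp upstream of its start and a second of 188 lay 168 bp downstream of another annotated TSS. Cdh9, which takes part in the mossy fibre synapse of the hippocampus, had its tallest peak, 172, 80 bp from the start, and 25 of its 29 peaks lay outside the gene. Cdh8, a synaptic cadherin, had all 7 of its peaks inside the gene, from 43 to 121, with one of 96 over the start. Cdh11, known also from bone, had 23 peaks, and a varying one of 139 lay 305 bp from its TSS.

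Cdh10 had 10 peaks with a median of 52. Near its starts lay the varying peak of 164 and constant-height peaks of 12 and 76. Cdh24 had 3 peaks, of 94, 95 and 123, and the tallest and the lowest lay beside annotated starts and were varying. Cdh12 and Cdh18 each had a varying peak at a TSS that is internal to the gene as GENCODE M21 records it. That of Cdh12 reached 345, 660485 bp from the gene start, and that of Cdh18 reached 223, 487303 bp from the gene start. The RefSeq starts used for the promoters lay near these peaks, 1163 bp away for Cdh12 and 99 bp away for Cdh18. What counts as the gene start therefore depends on the annotation. The nearest peak to the first base of the Cdh18 gene in GENCODE M21 was 29171 bp away.

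The remaining type II genes had no peak within 1 kb of a TSS. Cdh20 had 32 of its 34 peaks outside the gene, as far as 1720035 bp away, and its nearest peak was 9375 bp from the TSS. Cdh5, which encodes VE-cadherin of blood vessel walls, had 14 peaks, all upstream and 7 of them varying, from 41 to 182. Cdh6 had 25 peaks from 18 to 186 and Cdh19 had 8 from 38 to 128.

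Among the other cadherins, Cdh13 had 56 of its 67 peaks inside the gene, 16 of the 67 varying, with a median maximum signal of 103 and a highest value of 262. That highest peak lay 46300 bp upstream. The peak beside the Cdh13 start was narrow, at 64 bp, and reached 96. Cdh23, which forms the tip links of inner-ear hair cells together with Pcdh15, had 21 peaks from 23 to 175. Of those, 5 lay within 1 kb of one of its annotated starts, 1 of them varying with a maximum of 147. These were starts inside the gene, and the nearest peak to the first base of Cdh23 was 8803 bp away. Cdh26 had 25 peaks from 13 to 237, and none lay inside its 56.8 kb gene. They lay downstream, at 29627 to 385655 bp from the assigned TSS, on the side where Cdh4 lies. Cdh17, known from intestine and liver, had 6 peaks from 23 to 146, 5 of them varying. Cdh16, known from kidney, had none, and the nearest peak to its start was 7018 bp away.

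The delta-1 protocadherins Pcdh1, Pcdh7 and Pcdh9 held 82 peaks, with a median maximum signal of 106.5 (89 to 126). Of the 82, 33 were varying (40.2%), against 36.7% of all peaks. By gene, 17 of 28 were varying in Pcdh1, 5 of 12 in Pcdh7 and 11 of 42 in Pcdh9. Pcdh1, on chromosome 18, had a median maximum signal of 125. Its tallest peak, 428, was the tallest of all 597, ranked 588 in the list, and lay 58284 bp from the assigned TSS in intergenic sequence. Others of 322 and 297 lay 20933 and 12621 bp from it. The peak at the Pcdh1 start was 1943 bp wide with a maximum of 255 and the highest total signal of the 597, 275981.

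Pcdh7 had 12 peaks, 11 of them inside the gene. The one over the start reached 308 and was varying, and a second varying peak of 127 and a constant-height one of 97 lay beside it. Pcdh9 had 42 peaks with a median of 100.5, and 37 of them were more than 100 kb from the TSS. At its starts lay varying peaks of 248 and 160.

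The delta-2 protocadherins held only 26 peaks in 5 genes, 3 of them varying (11.5%, against 36.7% of all peaks). Their median maximum signal was 80 (58 to 104) and the highest value 156. Pcdh8, whose product arcadlin is induced by neuronal activity, had no peak, and the nearest to its start was 8216 bp away. Pcdh10 had a single constant-height peak of 16, 367 bp from a TSS. Pcdh17, a protein of presynaptic and postsynaptic contacts, had 5 peaks from 58 to 152, with a constant-height one of 97 lying 149 bp from the start. Pcdh18 had 12 peaks from 40 to 156. Pcdh19, X-linked and known for its role in epilepsy, had 8 constant-height peaks from 11 to 112, the nearest 19286 bp from a TSS.

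The 3 other protocadherin genes held 56 peaks. Pcdh15 had 41 of them, 35 inside the gene, from 28 to 254. The tallest lay 1142 bp upstream of a TSS and was varying, and a constant-height peak of 92 lay 174 bp from the start. Pcdh20 had 15 peaks from 18 to 128, all outside its 6.65 kb gene and at least 24734 bp away. Pcdh12, known from endothelial cells, had no assigned peak.

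Few of the peaks lay near a start. Within 1 kb of a TSS in the authors' annotation lay 37 of the 597 peaks (6.20%, 4.53 to 8.43%), against 15.3% of all annotated peaks. For peaks assigned to genes of at least 100 kb the share was 9.13%, and for the 466 peaks of member genes of that length it was 6.01% (4.19 to 8.55%). The 37 peaks lay in 20 genes, and 24 of them, in 17 genes, were varying. Those 24 had maximum signals from 34 to 345 with a median of 162, while the 13 of constant height ran from 12 to 138 with a median of 76. At the 37 summits GC content averaged 57.4 ± 9.56% (SD over peaks) with a mean of 9.35 CpG per 200 bp, against 57.5% and 9.62 for all peaks near a TSS.

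**Figure D2:**
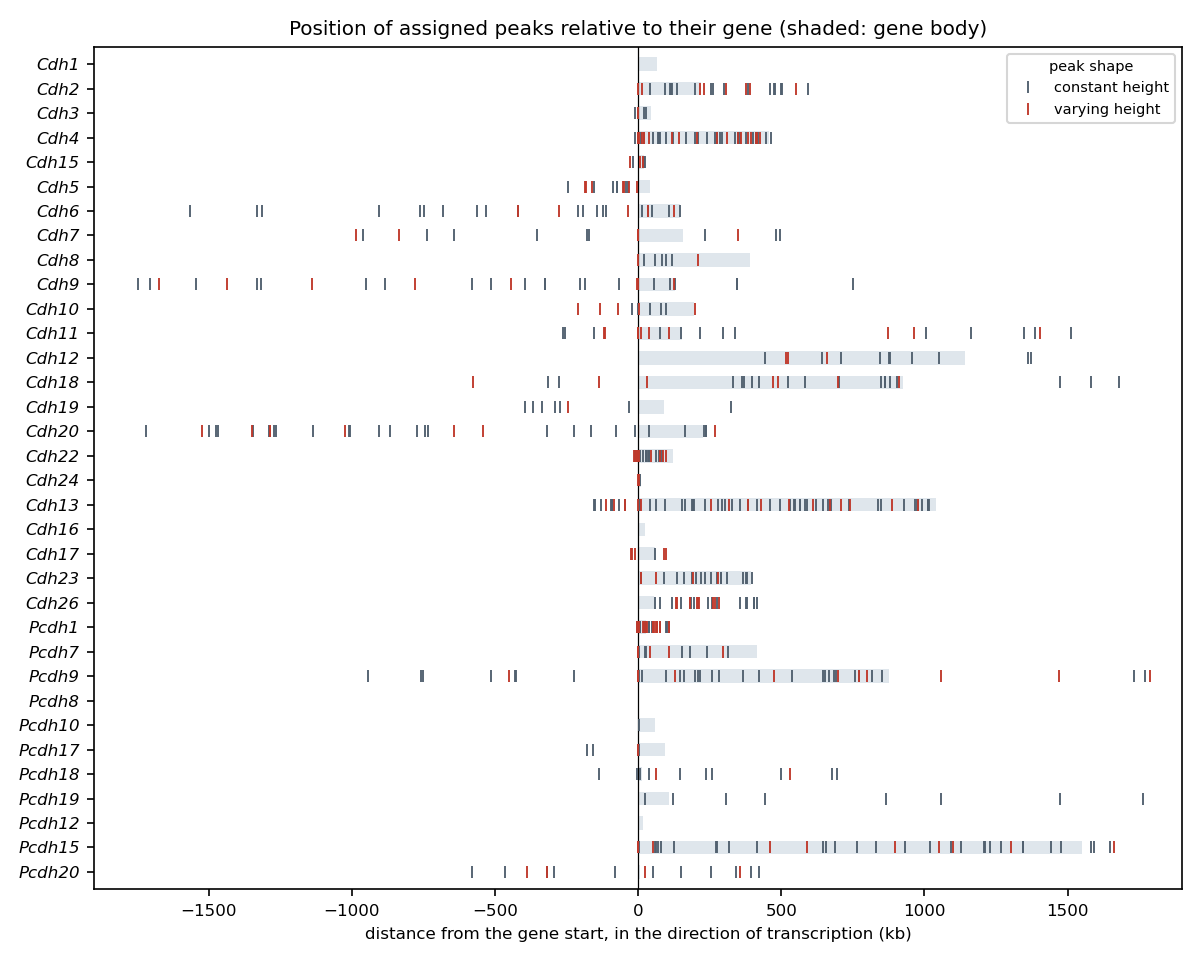
Position of each assigned peak along its own gene (horizontal axis, kb from the gene start in the direction of transcription), 1 row per gene, with the gene body shaded. Dark ticks are constant-height peaks and red ticks are varying peaks. Cdh13, Cdh4 and Pcdh15 have most ticks within the shading, while those of Cdh20, Cdh9 and Cdh26 lie mainly outside it.

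Counted from the genes instead of the peaks, the start of 17 of the 34 genes lay within 1 kb of a peak (50%, 34.1 to 65.9%), against 39.3% of all protein-coding genes. The start was inside a peak in 11 of them. Of the 18 genes that span at least 100 kb, 13 had a peak within 1 kb of the start (72.2%, 49.1 to 87.5%), against 51.2% of all protein-coding genes of that length, and the interval includes that share. Of the 16 shorter genes, 4 did (25%, 10.2 to 49.5%), against 37.8% of all protein-coding genes under 100 kb, a share inside that interval too.

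The peaks of these genes were mostly remote from starts. More than 100 kb from the TSS lay 311 of the 597 (52.1%, 48.1 to 56.1%), against 15.2% of all annotated peaks, and 95 lay more than 500 kb away (15.9%, against 1.99%). For peaks assigned to any protein-coding gene of at least 100 kb the shares were 19.8% and 2.42%. For the 466 peaks of member genes of at least 100 kb they were 54.7% and 19.5%. Those member genes had a median length of 309 kb, against 168 kb for all protein-coding genes of at least 100 kb, so length was not matched. The median distance was 116690 bp (91380 to 136271), against 14783 bp over all peaks. By the authors' classes 273 peaks were intronic (45.7%, against 38.0%), 255 were distal intergenic (42.7%, against 31.9%) and 53 were at promoters (8.88%, against 24.6%). A promoter here reaches 3000 bp from a TSS. Set against genes of at least 100 kb, the order differed by class. Peaks assigned to any protein-coding gene of at least 100 kb were 60.8% intronic and 20.1% distal intergenic, and the 466 of member genes of that length were 54.5% (upper bound of the interval 59.0%) and 35.4%. The 12 exonic peaks and 4 in 3′ UTRs made up the rest. Varying peaks made up 31 of the 53 promoter peaks (58.5%, 45.1 to 70.7%, against 48.8% of all promoter peaks). They made up 26.7% of the intronic ones (21.8 to 32.3%, against 34.3%) and 32.9% of the intergenic ones (27.5 to 38.9%, against 31.9%).

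**Figure D3:**
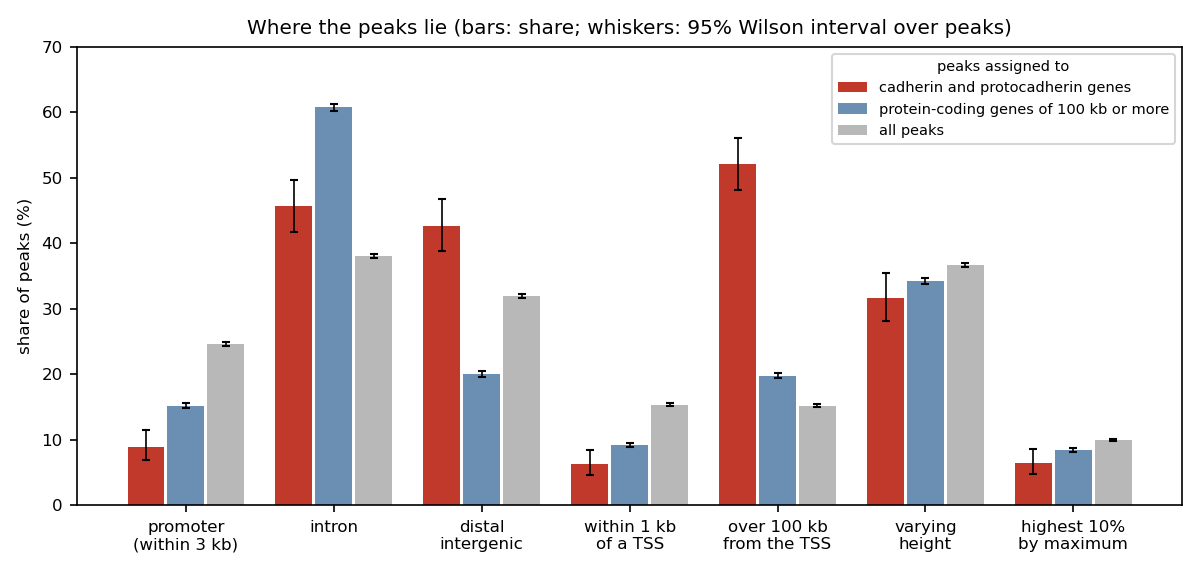
Share of peaks (vertical axis, %) by position, shape and height for the 597 cadherin and protocadherin peaks (red), peaks assigned to protein-coding genes of at least 100 kb (blue) and all annotated peaks (grey). Whiskers are 95% Wilson intervals. The red bar for peaks over 100 kb from the TSS stands at 52.1%, above 19.8% and 15.2%.

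Inside their own gene lay 300 of the 597 peaks and outside it 297. The 300 were spread along the gene, with 89, 61, 73 and 77 in 4 equal stretches from its start to its end. Of the 251 in an intron there, 59 were labelled intron 1 by the annotation. For Cdh15 that label also covered peaks outside the gene, within the overlapping Gm20388. It therefore need not mean the first intron of the member gene itself. Of the 297 outside, 268 lay in no annotated gene and 8 in another protein-coding gene. They lay a median of 231208 bp from the TSS, against 48974 bp for those inside, and both sets had a similar median maximum signal, 101 and 99.

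Outside peaks lay more in repeats. At least 50% of the summit window was marked as repeat in 29.6% (24.7 to 35.1%) of the outside peaks and in 17.7% (13.8 to 22.4%) of the inside ones. For the 597 together the share was 23.6% (20.4 to 27.2%), against 15.7% of all peaks. It was also above that of all peaks within the intergenic class, at 31.0% (25.6 to 36.9%) against 22.6%. Within the intronic class it was 20.9% (16.5 to 26.1%) against 16.0%. Of the outside peaks 85.9% were distal intergenic and of the inside ones 83.7% were intronic, and these classes differ in repeat share over all peaks too. Reads from repeats can map to several places, and its part in the peak counts was not tested. GC content at the summit was 46.2 ± 9.10% (SD over peaks), 3.21 points above the flanks, and over all peaks it was 49.0 ± 8.92% and 3.44 points above.

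The neighbourhoods of several genes had few peaks from end to end. Cdh6, Cdh9, Cdh10, Cdh12 and Cdh18 follow one another on chromosome 15, and the 10.4 Mb from the first to the last held 135 peaks of any assignment. That is 12.9 per Mb (10.8 to 15.3), against 43.7 per Mb on the whole chromosome. From Pcdh17 to Pcdh9 on chromosome 14 the density was 12.7 per Mb against 33.8, from Cdh8 to Cdh5 on chromosome 8 it was 17.8 against 42.4, and from Cdh20 to Cdh19 on chromosome 1 it was 19.3 against 35.6. The interval from Cdh26 to Cdh4 on chromosome 2 differed, with 87 peaks in 1.47 Mb, or 59.2 per Mb (47.4 to 73.1) against 42.6, and 69 of the 87 were assigned to member genes.

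Peak density inside the gene bodies, whichever gene a peak was assigned to, was 3.58 peaks per 100 kb (3.20 to 3.98) over the 34 genes. All protein-coding genes had 5.45 and those of at least 100 kb had 4.71. Among the 18 long member genes the density was 3.56, with a median per gene of 2.88 against 4.17 for all long genes. Of the 18, 4 were above the pooled value of long genes. Cdh2, below that value at 4.54, stood at percentile 54.3 of all long genes. Pcdh1 had the highest density, 30.6 per 100 kb, followed by Cdh22 (22.7), Cdh15 (20.6), Cdh24 (19.7) and Cdh4 (9.19). Type I genes together had 7.28 per 100 kb (4.81 without Cdh4), type II 2.84, delta-1 3.56 and delta-2 1.80. There was no peak in the bodies of Cdh1, Cdh16, Cdh19, Cdh26, Pcdh8 and Pcdh20. These 6 were among the 16 member genes under 100 kb, and 8683 of all 19446 protein-coding genes under 100 kb had none.

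**Figure D4:**
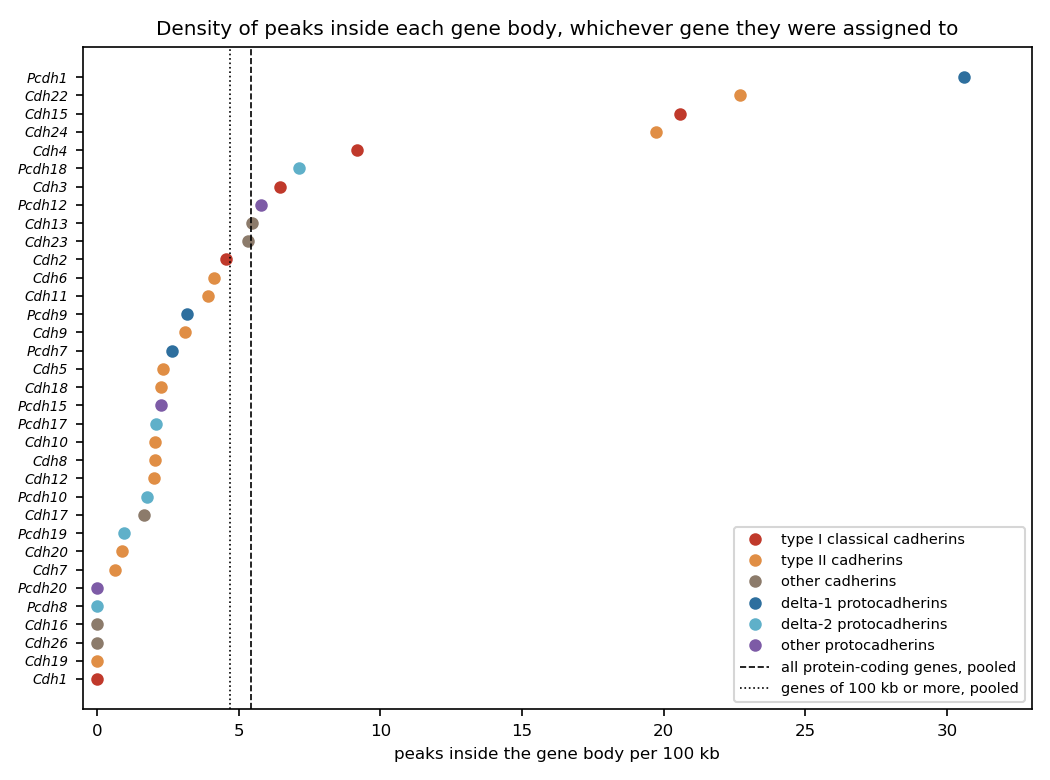
Peaks inside each gene body per 100 kb (horizontal axis), by gene and coloured by role, for all peaks regardless of assignment. The dashed and dotted lines are the pooled densities of all protein-coding genes (5.45) and of those of at least 100 kb (4.71), and Pcdh1 and Cdh22 lie farthest to the right.

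The assignment by symbol missed some peaks inside these genes. Of the 332 body peaks, 32 were assigned to another gene. Cdh12 held 23 peaks, of which 12, all of constant height and from 8 to 132, were assigned to the nested Acot10. One of those 12, with a maximum of 77, lay over the first base of the Cdh12 gene in GENCODE M21. Cdh22 held 28, of which 12 were assigned to its neighbour 1700025C18Rik, 4 of them varying, from 35 to 207. Cdh18 held 3 assigned to Hnrnpa1l2-ps2. The single peak in Pcdh12, a varying one of 87 in a 3′ UTR, was assigned to Dele1.

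The catenins, which bind the cadherin tails, all had peaks, 124 in 7 genes. Of these, 37 were varying (29.8%, against 36.7% of all peaks). The start lay within 1 kb of a peak in 5 of the 7, beside 39.3% of all protein-coding genes and 51.2% of those of at least 100 kb. Ctnna2, the neuronal alpha-catenin, had 33 peaks and the tallest at 583, above the 428 of Pcdh1. Jup (plakoglobin) reached 408, Ctnnd2 (delta-catenin) 288, Ctnnb1 (beta-catenin) 259, Ctnna3 249, Ctnnd1 (p120-catenin) 217 and Ctnna1 169. Of 22 other genes of the cadherin superfamily 20 had peaks, 195 in all, and 86 of these were varying (44.1%, against 36.7% of all peaks). A peak lay inside the gene body in all 7 catenin genes and in 19 of these 22. Of all 21938 protein-coding genes, 8735 had none there. Clstn3 (calsyntenin, a synaptic protein) had 10 varying peaks of 11 with a maximum of 359. The related Clstn1 and Clstn2 had 5 varying peaks of 15 and 5 of 6. Of the Celsr genes, which act in planar cell polarity, Celsr2 and Celsr3 had 8 and 3 peaks, all varying, and Celsr1 had 10, of which 4 were varying, with a maximum of 121. The varying share was lower in Fat1 (4 of 15), Fat3 (11 of 42) and Fat4 (3 of 23), and Fat2 had 4 of 8. Cdhr4 and Dsc2 had no peak.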

How the data were processed

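CUT&Tag was run on 1 anti-FLAG and 1 anti-IgG library of mouse hippocampus. Per the labels' protocols, the authors aligned reads to mm10 (Bowtie2), filtered them for quality and duplicates, ran SEACR with IgG as control and made tracks (deepTools). No versions are given, and the annotation tool and its transcripts are not given in the sources used here. The deposited maximum and total signal per peak are the authors' coverage values, whose scaling is not stated, and the deposited distance to the TSS is theirs too.

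Members were taken by symbol from the annotation. They, the gene lists and the constant-height measure (threshold 99%) were chosen with earlier results of these data known. Named in full were the 6 genes with the most peaks, those with the 6 tallest and 6 highest total peaks, those with a varying peak within 1 kb of a TSS and those without a peak. The remaining members are given by range.

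Positions were computed against GENCODE M21 and GRCm38.p6 with Python 3.11.15, pandas 2.3.3, NumPy 2.4.6 and pysam 0.24.0. A peak was counted in a gene body if the middle of its summit lay there. Shares carry Wilson and densities exact Poisson 95% intervals. Motif and position counting were tested on simulated data. No hypothesis test was run.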

Additional observations from a re-analysis of the deposited data

How the results depend on the processing

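Across 12 results and 76 alternatives, 49 values moved by less than their interval, or within 1.5 times for counts, and 27 moved further. None reversed, but in the highest 10% by total signal the motif difference between summit and flank, -4.65 points (-16.8 to 7.47), no longer excluded 0. Leaving out Cdh4, chosen after seeing the data, moved the type I share inside the own gene to 43.6% and the type I density to 4.81 per 100 kb. With maximum signal above the list median, 291 peaks were left, the constant-height share was 59.1%, the median maximum signal 132 and the body density 1.69 per 100 kb. In the highest 10% by total signal, 43 peaks in 18 genes were left, 7 genes had a TSS peak, 20.9% of peaks lay within 1 kb of a TSS and 30.2% in introns, none had constant height (0%), the median maximum signal was 207, the median distance 55588 bp and the density 0.205. With peaks of at least 200 bp these were 57.4% for constant height, 95 for the median maximum and 2.56 for density. Without constant-height peaks, 189 peaks were left, 12.7% near a TSS and 38.6% intronic, with a median maximum of 129, a median distance of 67334 bp, a density of 1.002 and GC 5.63 points above the flanks. Of all 36626 varying peaks in the list, 8484 lay within 1 kb of a TSS and 12996 were intronic. Their median maximum was 134 and their median distance 9962 bp, with GC 5.85 points above the flanks. Values of the whole list were not computed for the filter by total signal. Fewer peaks lower counts and densities by construction, and the cause of the other changes was not tested. The TSS share was 4.36% within 500 bp and 8.88% within 3 kb. Overlap with the gene body gave 339 member peaks. Without Cdh13, 41.5% of peaks were intronic. No paired analysis was possible because there is 1 anti-FLAG library. The single library, its unknown depth, the unstated scaling and the missing SEACR settings limit every value.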
